A study of Mus musculus with 76 samples.

Results

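Gata6, Gata4, Sox17, Sox7, Foxa2, Hnf4a, Pdgfra and Dab2 are 8 genes that regulate or mark the primitive endoderm of the mouse blastocyst. They were taken by symbol from the count tables, which list 48321 genes at each of 4 stages. RNA had been sequenced from single mouse oocytes and embryos to ask how the loss of maternal Ezhip affects early development. Ezhip encodes an inhibitor of PRC2, the enzyme complex that methylates histone H3 at lysine 27.

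The matKO oocytes lacked Ezhip, and the other matKO libraries came from embryos without maternal Ezhip. WT libraries were wild type. There were 4 matKO and 3 WT oocytes, all labelled female. The 2-cell embryos were 12 matKO (6 female and 6 male) and 11 WT (5 female and 6 male). The blastocysts were 14 matKO (7 female and 7 male) and 14 WT (6 female and 8 male). Extraembryonic ectoderm (ExE), the trophoblast tissue next to the epiblast, was taken at embryonic day 6.5 from 8 matKO (5 female and 3 male) and 10 WT (6 female and 4 male) conceptuses. The strain, the sire, the paternal Ezhip allele and the number of mothers were not given in the sources used here. P-values therefore measure the spread between libraries, some of which may share a mother.

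In the blastocyst the inner cell mass separates into epiblast and primitive endoderm. GATA6 starts the primitive endoderm programme in cells that receive FGF4 through the receptors FGFR1 and FGFR2, and NANOG opposes it. GATA4, SOX17 and SOX7 then act later in the same lineage, PDGFRA is its PDGF receptor, and DAB2 is an adaptor needed to position the endoderm at the surface. FOXA2 and HNF4A belong to the visceral endoderm that covers the egg cylinder, while parietal endoderm keeps GATA6, GATA4, SOX17 and SOX7 and secretes basement membrane.

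GATA factors bind the core GATA in DNA. Promoter windows were searched for AGATAA and TGATAA, and also for the SOX core ACAAT and the HNF4 motif CAAAGTCCA, on both strands. RefSeq promoter windows (build GRCm38.p6, 250 bases before to 50 after a start site) were present for 4 of the 8 genes, 8 windows in all. The Dab2 and Hnf4a windows below are shown because each held a GATA match and its gene was called beside Gata6 in a genotype comparison, Dab2 in one set of blastocysts and Hnf4a in ExE. Capitals mark the matches.
Dab2, chr15:6299539-6299838, plus strand: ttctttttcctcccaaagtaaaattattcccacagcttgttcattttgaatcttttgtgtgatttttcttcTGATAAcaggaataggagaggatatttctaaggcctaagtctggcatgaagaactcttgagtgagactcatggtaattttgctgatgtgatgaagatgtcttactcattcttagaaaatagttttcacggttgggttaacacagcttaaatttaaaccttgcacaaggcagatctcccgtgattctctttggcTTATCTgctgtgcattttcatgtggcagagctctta
Hnf4a, chr2:163506607-163506906, plus strand: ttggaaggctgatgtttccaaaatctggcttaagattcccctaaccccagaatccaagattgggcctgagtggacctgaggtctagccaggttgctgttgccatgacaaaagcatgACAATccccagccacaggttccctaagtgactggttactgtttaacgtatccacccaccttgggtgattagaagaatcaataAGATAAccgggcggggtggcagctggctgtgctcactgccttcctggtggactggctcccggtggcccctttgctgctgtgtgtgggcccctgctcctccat
Counted from the start site, with bases before it negative, TGATAA in Dab2 began at -179, and TTATCT, which is AGATAA read on the other strand, at 14. In Hnf4a, AGATAA began at -52 and ACAAT at -134. Among 32851 RefSeq windows of this length, 18.6% held AGATAA or TGATAA, 31% held ACAAT and 0.475% held CAAAGTCCA. One of the Foxa2 windows held AGATAA, while the Pdgfra window and the remaining windows of Foxa2, Hnf4a and Dab2 held none of these letters. Such matches describe the sequence and are not evidence of binding.

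In mm10, Gata4 (chromosome 14, 63198922 to 63271692) and Sox7 (chromosome 14, 63943674 to 63950732) lay on one chromosome, Foxa2 (148042877 to 148046969) and Hnf4a (163506808 to 163572910) on chromosome 2. Gata6 lay on chromosome 18 (11052510 to 11085635), Sox17 on chromosome 1 (4490931 to 4497354), Pdgfra on chromosome 5 (75152292 to 75198215) and Dab2 on chromosome 15 (6299788 to 6440712). Counts were made over exons. Exons of Gata6, Sox17 and Pdgfra overlapped antisense genes, Gata6 by 58 bases, Sox17 by 804 and Pdgfra by 456 and 166. Pdgfra also held 30 bases of the microRNA Mir7025. The strand setting of the counting was not given in the sources used here, so reads in those stretches could not be assigned with certainty.

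Library totals differed widely and set how firmly low genes could be read. Totals were 5.27 to 26.5 M counts in oocytes, 1.05 to 14.1 M in 2-cell embryos, 4.06 to 32 M in blastocysts and 2.74 to 26.7 M in ExE. Levels are given as CPM, the counts of a gene per M counts of its library, and fold changes come from edgeR on the log2 scale with their standard errors (SE). A gene was called at a Benjamini-Hochberg adjusted p below 0.05 over all genes tested. Ezhip checked the labels where it is expressed: its median was 0.224 CPM in matKO and 1380 CPM in WT oocytes, and 1.02 CPM in matKO and 135 CPM in WT 2-cell embryos. Library identifiers carry a prefix (D405T, D707T or D1042C) of unstated meaning. Oocytes and 2-cell embryos were all D707T, blastocysts were D405T (6 matKO and 10 WT) or D707T (8 matKO and 4 WT), and in ExE every matKO library was D707T and every WT library D1042C.

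Each of the 8 genes had its own course over the stages. Gata4 was high in 2-cell embryos and low in blastocysts, whereas Gata6 and Dab2 did the reverse. Foxa2, Sox7, Hnf4a and Sox17 reached their high levels in ExE. Oocytes had a mean Gata4 of 56 ± 8.09 CPM in matKO and 25.4 ± 8.97 CPM in WT (SD), and 2-cell embryos 194 ± 94 CPM in matKO and 261 ± 40.6 CPM in WT. Blastocysts had 5.31 ± 3.88 CPM in matKO and 14.2 ± 14.8 CPM in WT, and ExE 217 ± 126 CPM in matKO and 159 ± 60.1 CPM in WT. The order of the stages for Gata4 was thus 2-cell embryos and ExE, which overlap, then oocytes, then blastocysts, the last pair overlapping in WT.

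**Figure D1:**
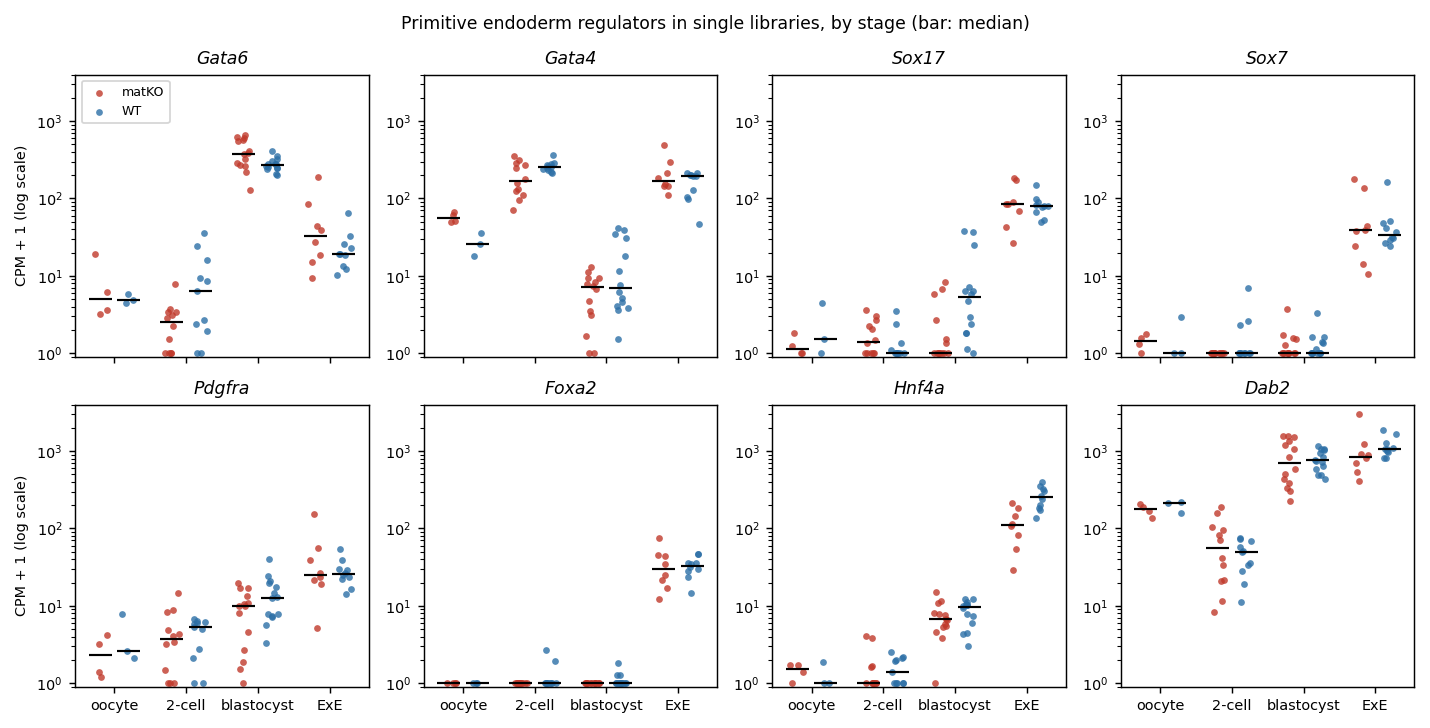
CPM + 1 on a log axis for each of the 8 genes at 4 stages, with matKO libraries left of WT libraries, 1 point per library and a bar at the median. Gata6 and Dab2 peak in blastocysts or stay high there, Gata4 dips in them, and Foxa2 lies at or near 0 before ExE.

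Gata6, the first GATA factor of the lineage, was scarce in 2-cell embryos (0 to 6.88 CPM in matKO and 0 to 35.2 CPM in WT) and abundant in every blastocyst (129 to 664 CPM in matKO and 202 to 415 CPM in WT). Blastocysts exceeded 2-cell embryos by 8.36 ± 0.65 (log2, SE) in matKO and by 5.42 ± 0.57 in WT, without overlap between the stages. ExE was lower than blastocysts by a log2 difference of -2.81 ± 0.57 in matKO and -3.66 ± 0.54 in WT. Dab2, the adaptor, was higher in blastocysts than in 2-cell embryos by 4.29 ± 0.37 in matKO and 4.69 ± 0.39 in WT. Its ExE level, with medians of 847 CPM in matKO and 1060 CPM in WT, did not pass the test against blastocysts (adjusted p = 0.21 in matKO and 0.13 in WT), although in WT it did with DESeq2 size factors (0.76, adjusted p = 0.041) and in DESeq2 (0.044). Gata4 went the other way, at -4.59 ± 0.48 in matKO and -3.64 ± 0.46 in WT for blastocysts over 2-cell embryos and at 5.52 ± 0.51 in matKO and 3.49 ± 0.46 in WT for ExE over blastocysts.

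For blastocysts over 2-cell embryos, 6 of the 8 genes were called in matKO, where 72.6% of all genes tested were called, and 6 of 8 in WT, where 70% were. Those shares are near the background. The median gene stood at -0.56 in matKO and -0.5 in WT in that comparison, and at 0.14 in matKO and 0.11 in WT for ExE over blastocysts, and no called regulator changed direction when DESeq2 size factors replaced TMM scaling. Hnf4a, a nuclear receptor, was higher by 3.74 ± 0.56 in matKO and 4.23 ± 0.57 in WT. Pdgfra was higher by 1.85 ± 0.61 in matKO and 2.6 ± 0.64 in WT, and Sox17, an HMG-box factor, by 1.7 ± 0.89 in matKO, which was not called (adjusted p = 0.08), and 4.68 ± 0.95 in WT. All 2-cell embryos were D707T. With D707T blastocysts alone, Sox17 stood at -2.42 in matKO and 1.82 in WT and Pdgfra at 1.65 in matKO and 1.86 in WT, and neither was called.

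Sox7 and Foxa2 were almost unread before ExE. All 12 matKO 2-cell embryos had 0 Sox7 counts, and over the 14 matKO blastocysts its pooled level was 0.295 CPM, at least 5.21-fold higher than the limit of 3 counts in the summed 2-cell total. That pooled level came from 61 counts, and 9 of the 14 embryos had none. The joint fit called Sox7 for matKO blastocysts over 2-cell embryos, a call that rests on these few counts. WT did not share this rise: its pooled Sox7 was 0.595 CPM in 2-cell embryos (45 counts) and 0.357 CPM in blastocysts (92 counts). Under the 5 other settings run, the WT log2 fold change lay between -1.05 and -0.23 and was never called. Within either stage Sox7 was too low to be tested. Foxa2, a forkhead factor, had 0 counts in every oocyte, every matKO 2-cell embryo and all 14 matKO blastocysts, which allows up to 0.0145 CPM over the summed blastocyst total. Of the WT blastocysts, 3 held Foxa2 counts, namely 6, 26 and 6. These limits cover counting error alone.

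In ExE over blastocysts, 7 of the 8 genes were called in matKO (49% of all genes tested) and 6 in WT (55% of all genes). Foxa2 was at least 2280-fold higher in matKO, from a pooled 33.1 CPM in ExE, and 7.98 ± 0.81 higher on the log2 scale in WT. Sox7 was higher by 7.63 ± 1.01 in matKO and 7.01 ± 0.97 in WT, Hnf4a by 4.33 ± 0.49 in matKO and 5.08 ± 0.49 in WT, and Sox17 by 6.04 ± 0.88 in matKO and 3.11 ± 0.77 in WT. Pdgfra was called in matKO (2.53 ± 0.62) and not in WT (0.96 ± 0.58, adjusted p = 0.16), and the difference between the genotypes was not tested. The comparison sets a whole blastocyst against one dissected tissue, and in WT the stages share no prefix, so stage, tissue and prefix cannot be told apart. In these bulk libraries fewer cells of a type and less RNA per cell cannot be told apart either.

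Divided by exon length, the levels of the 8 genes can be compared with each other. In blastocysts Gata6 (127 CPM per kb in matKO and 86.6 in WT) and Dab2 (115 CPM per kb in matKO and 107 in WT) were far above the rest. The next was Gata4 at 1.36 CPM per kb in matKO and 3.63 in WT, with Hnf4a, Pdgfra and Sox17 between 0.305 and 1.91, and Sox7 and Foxa2 near 0. In ExE Dab2 led with 145 CPM per kb in matKO and 158 in WT, and the next were Gata4 at 55.6 in matKO and 40.8 in WT and Hnf4a at 23.9 in matKO and 53.3 in WT, with Gata4 the higher of the pair in matKO and Hnf4a in WT. Sox17, Sox7, Foxa2 and Gata6 lay between 7.16 and 19.6 CPM per kb, and Pdgfra at 4.2 in matKO and 2.7 in WT. In 2-cell embryos Gata4, at 49.8 CPM per kb in matKO and 66.7 in WT, and Dab2, at 9.37 in matKO and 6.13 in WT, made up most of the signal of the 8 genes.

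Oocytes were compared to see whether the genes differed before fertilisation. Gata4 stood at 48.6, 50.2, 59.3 and 65.8 CPM in the 4 matKO oocytes, against 24.6, 16.8 and 34.7 CPM in the 3 WT oocytes. Every matKO oocyte was above every WT oocyte, but how many of all genes separate in this way was not counted. The log2 fold change of 1.13 ± 0.28 did not pass the test (edgeR, adjusted p = 0.76). Dab2 had 135 to 209 CPM in matKO and 157 to 218 CPM in WT (log2 -0.19 ± 0.2). Gata6 had 2.2, 2.65, 18 and 5.25 CPM in matKO and 3.5, 4.79 and 3.89 CPM in WT, so that the matKO values fell on both sides of WT. Of the 4 genes with enough counts to be tested (Gata6, Gata4, Pdgfra and Dab2) none was called, where 0.0202% of all genes tested, 3 genes, were called. DESeq2 called 0 of the 4. At an unadjusted p below 0.05, 1 of the 4 passed in edgeR, and 929 genes of all tested.

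In 2-cell embryos, none of the 4 genes tested was called either (0 by edgeR and by DESeq2; 1 of 4 in edgeR at an unadjusted p below 0.05), where 0.731% of all genes tested were called. Gata6 had a median of 1.55 CPM in matKO (0 to 6.88) and 5.32 CPM in WT (0 to 35.2), and 5 WT embryos exceeded every matKO embryo. On the log2 scale it stood at -2.35 ± 0.91 (adjusted p = 0.23), and it was called in edgeR without a separate dispersion step (adjusted p = 0.035). In simulated 2-cell data 31.9% of the calls of that fit were unchanged genes, against 0% in the main fit. Gata6 and Gata4 are also known in granulosa cells, and markers of granulosa and cumulus cells were read beside them. The summed level of 16 such markers was 204 to 402 CPM in matKO and 292 to 1930 CPM in WT, and 7 of 11 WT embryos exceeded every matKO embryo. Of these markers 8 were tested, and 3 of them, Cyp11a1, Hsd3b1 and Inha, were lower in matKO, with Cyp11a1 at 0 in all 12 matKO embryos. The 2 WT embryos highest in Gata6 (35.2 and 23.5 CPM) had marker sums of 359 and 292 CPM, inside the matKO range. Without those 7 WT embryos, a choice made after seeing the data, Gata6 stood at -3.21 ± 1.09 (adjusted p = 0.27).

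Dab2 split the matKO 2-cell embryos by library number, and Gata4 differed in mean between the same sets with an overlap. Gata4 averaged 271 ± 64.4 CPM in the 5 matKO embryos numbered 37 to 41 and 140 ± 71.3 CPM in the 7 numbered 42 to 48 (SD), against 261 ± 40.6 CPM in the 11 WT embryos. Dab2 did the opposite, with 18.3 ± 10.1 CPM and 105 ± 50.7 CPM in these matKO sets, against 45 ± 22 CPM in WT. The Gata4 values were 180 to 349 CPM in numbers 37 to 41 and 69.8 to 288 CPM in 42 to 48, and the Dab2 values 7.39 to 33 CPM and 40.8 to 187 CPM in these sets. Sex and depth differed too, with 4 females and 1 male at totals of 4.19 to 11 M counts in the first set, and 2 females and 5 males at 1.48 to 4.65 M in the other. The 6 female matKO embryos averaged 238 ± 89.5 CPM of Gata4 and the 6 male ones 151 ± 83 CPM, and the parts of number, sex and depth in these values were not tested. What the numbers stand for was not given, and the later set contains no WT embryo. Over all embryos Gata4 stood at -0.39 ± 0.23 (adjusted p = 0.48) and Dab2 at 0.65 ± 0.43 (adjusted p = 0.51). Without numbers 42 to 48, a choice made after seeing the data, the signs turned to 0.23 ± 0.19 for Gata4 and -1.32 ± 0.47 for Dab2, again with no call. Since that set had the lower Gata4 and the higher Dab2, the turn follows from the choice and adds nothing to the means above.

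**Figure D2:**
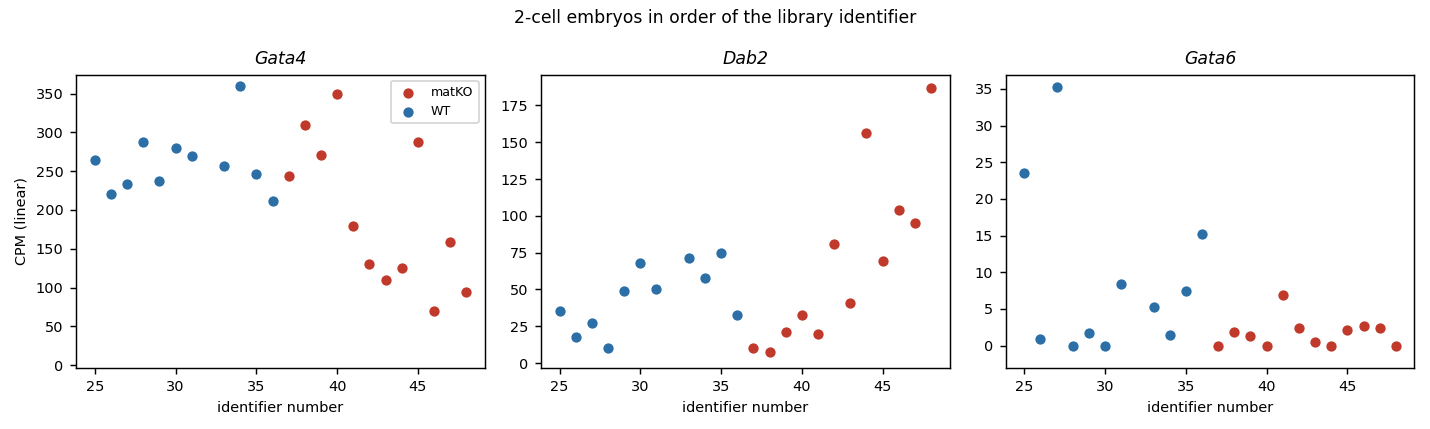
CPM of Gata4, Dab2 and Gata6 in each 2-cell embryo (1 point each) against the number in its library identifier, matKO and WT in separate colours. matKO embryos numbered 42 to 48 average 140 CPM of Gata4 and 105 CPM of Dab2, against 271 and 18.3 CPM in numbers 37 to 41.

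Blastocysts are the stage at which the primitive endoderm forms, and there Gata6 was higher in matKO embryos while none of the later genes of the lineage was called. Gata6 had a lowest, median and highest value of 129, 378 and 664 CPM in 14 matKO blastocysts and of 202, 267 and 415 CPM in 14 WT blastocysts. The groups overlapped, with 6 matKO embryos above every WT embryo and 1 below. Its log2 fold change was 0.74 ± 0.14 (edgeR, adjusted p = 0.0019). Of the 6 genes tested, Gata6 was the 1 called, where 6.3% of all genes tested were called (2.75% higher and 3.55% lower). The call held without each library in turn and under the 7 other settings tried, with adjusted p from 7.2e-05 to 0.019.

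Sox17, which follows GATA6 in the lineage, had 0 counts in 8 of 14 matKO blastocysts and in 1 of 14 WT blastocysts. These zeros followed the prefix, with 7 of 8 matKO and 1 of 4 WT in D707T, and 1 of 6 matKO and 0 of 10 WT in D405T. As D707T held more matKO than WT embryos, these counts and the means below mix genotype with prefix. It averaged 1.46 ± 2.52 CPM in matKO and 9.13 ± 13.1 CPM in WT (SD), and 3 WT embryos exceeded every matKO embryo. The log2 fold change of -2.32 ± 0.78 missed the threshold (adjusted p = 0.072). It crossed it without WT female 1 (adjusted p = 0.043), without matKO female 7 (0.045), in DESeq2 (0.023) and in edgeR without a separate dispersion step (0.022). In simulated blastocyst data 40.4% of the calls of this last fit were unchanged genes, against 6.31% in the main fit. Gata4 averaged 5.31 ± 3.88 CPM in matKO and 14.2 ± 14.8 CPM in WT, and all 14 matKO embryos were below the WT mean. That mean rested on 5 WT embryos above every matKO embryo, and the log2 fold change was -0.66 ± 0.64 (adjusted p = 0.64).

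Pdgfra had 8.18 ± 6.22 CPM in matKO and 13.5 ± 9.8 CPM in WT (log2 -0.68 ± 0.52, adjusted p = 0.52). Hnf4a had 6.17 ± 3.49 CPM in matKO and 7.54 ± 3.08 CPM in WT (log2 -0.25 ± 0.38, adjusted p = 0.8). Neither separated the genotypes. Dab2 averaged 848 ± 510 CPM in matKO and 784 ± 244 CPM in WT, with 5 matKO embryos above and 4 below every WT embryo. Its log2 fold change of 0.41 ± 0.14 was not called (adjusted p = 0.085), and it was without matKO female 5 (adjusted p = 0.033) and in edgeR without a separate dispersion step (0.044). Sox7 and Foxa2 were too low to be tested.

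The prefixes divided the blastocysts strongly, with 38.4% of all genes tested called for D707T over D405T. Of the 6 tested regulators 3 were lower in D707T, as were 21.5% of all genes tested: Dab2 by a log2 difference of -1.06 ± 0.15 (adjusted p = 1.8e-06), Sox17 of -4.06 ± 0.89 (0.00052) and Gata6 of -0.39 ± 0.15 (0.038). Gata4 stood at -1.43 ± 0.65 (0.082) and was called without matKO female 4 (0.042), without matKO male 7 (0.018) and in DESeq2 (0.035). The Gata6 call was lost without WT female 3 and without each of 10 matKO libraries (females 1, 2, 3 and 5 to 7; males 2 to 4 and male 7), with adjusted p from 0.051 to 0.096, and with DESeq2 size factors (0.055) or DESeq2 itself (0.052). Markers of the trophectoderm moved with the prefix: their summed level over 14 genes was 903 to 2210 CPM in matKO and 2210 to 4860 CPM in WT in D707T, and 2940 to 5500 CPM in matKO and 4750 to 8110 CPM in WT in D405T.

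Within D405T, where matKO and WT numbers are interleaved, the Gata6 groups came close to separating. The 6 matKO blastocysts had 373, 552, 571, 602, 614 and 664 CPM, against 202 to 415 CPM with a median of 279 in 10 WT blastocysts. All but 1 matKO embryo were above every WT embryo. matKO exceeded WT by 1.06 ± 0.17 on the log2 scale (edgeR, adjusted p = 0.00081). Dab2 behaved likewise, with 1080, 1200, 1340, 1520, 1550 and 1570 CPM in matKO, against 586 to 1180 CPM with a median of 891 in WT, and 5 of 6 matKO embryos above every WT embryo. Its log2 fold change was 0.71 ± 0.17 (adjusted p = 0.023), a call lost without matKO female 1 (0.086), female 3 (0.058), male 2 (0.051) or male 3 (0.063). These were the 2 called of 6 tested regulators, where 2.31% of all genes tested were called and 1.45% of all genes tested were higher.

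Within D707T none of the 6 was called (0 by edgeR and by DESeq2; 1 of 6 in edgeR at an unadjusted p below 0.05), where 6% of all genes tested were called. Gata6 had a lowest, median and highest value of 129, 277 and 415 CPM in 8 matKO blastocysts, against 237, 246, 256 and 260 CPM in the 4 WT blastocysts. Of the matKO embryos 6 were above every WT embryo and 2 below, and the log2 fold change was 0.29 ± 0.21 (adjusted p = 0.46). Dab2 had 227 to 841 CPM in matKO, against 429 to 636 CPM in WT (log2 -0.01 ± 0.21). The genotype effect in D707T minus that in D405T was -0.77 ± 0.27 for Gata6 (adjusted p = 0.14) and -0.72 ± 0.27 for Dab2 (adjusted p = 0.18). Neither difference was called, nor that of the other 4 tested (0 by edgeR and by DESeq2; 2 of 6 in edgeR at an unadjusted p below 0.05), where 1.2% of all genes were. In D707T the WT blastocysts are numbers 1 to 4 and the matKO ones 5 to 12, so genotype and library order cannot be told apart there.

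**Figure D3:**
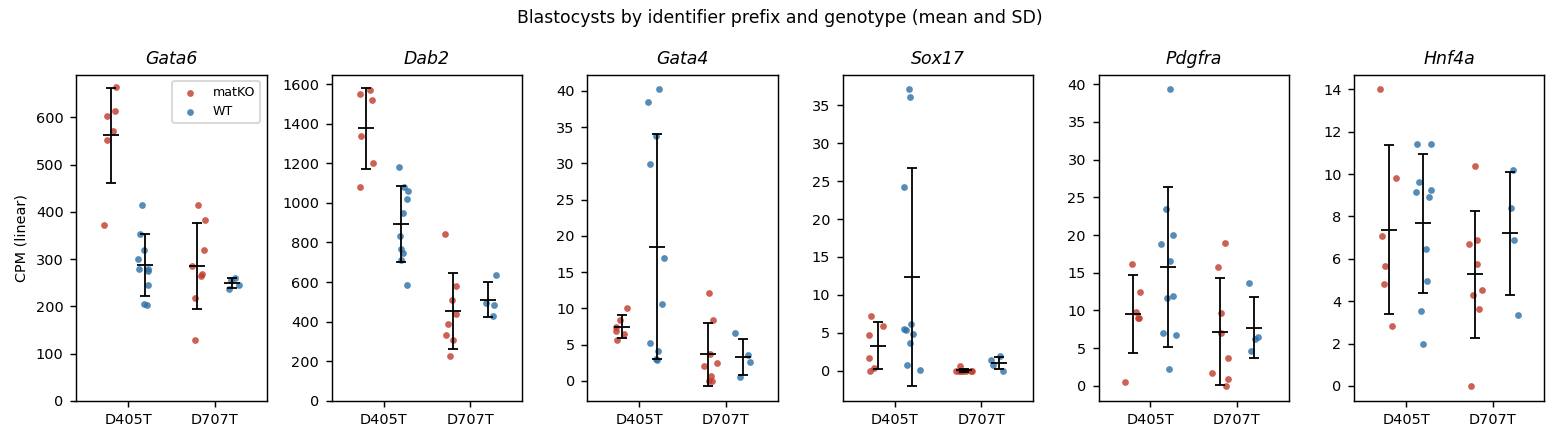
CPM on linear axes of the 6 tested regulators in blastocysts (1 point each, with mean and SD), by identifier prefix and with matKO left of WT. In D405T 5 of 6 matKO embryos lie above every WT embryo for Gata6 and for Dab2, while Sox17 is at 0 in 7 of 8 D707T matKO embryos.

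Sox17 was near the detection limit in D707T. It had 0 counts in 7 of 8 matKO embryos, the other having 0.548 CPM, against 0, 1.39, 0.803 and 1.92 CPM in the 4 WT embryos. The log2 fold change of -3.55 ± 1.37 was not called (adjusted p = 0.12), and was without matKO female 7, the embryo with counts (adjusted p = 0.039). In D405T it had 0 to 7.24 CPM in matKO (median 3.21) and 0.129 to 37.1 CPM in WT (median 5.41), a log2 fold change of -1.82 ± 1 (adjusted p = 0.42). The ranges overlapped, and 3 embryos stood above the rest in WT. WT female 3, male 1 and male 3 had 37.1, 36.1 and 24.2 CPM of Sox17.

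Those 3 WT embryos were also the 3 with Foxa2 counts, and they had the 3 highest Gata4 levels of all blastocysts, at 38.5, 33.8 and 40.2 CPM. Gata4 in the 6 D405T matKO embryos kept to 5.7 to 10.1 CPM, while the 10 WT embryos ranged from 2.83 to 40.2 CPM, with 6 above every matKO embryo. The means differed by -1.24 ± 0.77 on the log2 scale (adjusted p = 0.5). Pdgfra spread in the same way, with 0.546 to 16.2 CPM in matKO and 2.31 to 39.3 CPM in WT, and 5 of 10 WT embryos above every matKO embryo (log2 -0.78 ± 0.66, adjusted p = 0.67). WT female 3, male 1 and male 3 were singled out after their values were seen. In that order they had 18.8, 23.4 and 20 CPM of Pdgfra, all above the D405T matKO maximum of 16.2 CPM, and 11.4, 9.63 and 3.52 CPM of Hnf4a, all below the matKO maximum of 14 CPM. Across the 16 D405T blastocysts, centred by genotype, 0 of 15 pairs of the 6 tested regulators were called by the permutation test, with Pearson's r = 0.45 and Spearman's rho = 0.52 for Gata4 and Sox17 (adjusted p = 0.44 and 0.28), r = 0.67 and rho = 0.54 for Sox17 and Pdgfra (adjusted p = 0.1 and 0.28) and r = 0.13 and rho = 0.29 for Gata4 and Pdgfra (adjusted p = 0.82 and 0.53). The tests of the means did not call the differences between genotypes either.

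Basement membrane and secreted proteins are the products of primitive endoderm, and 14 of their genes were read as a group. Their sum was 114 to 264 CPM in matKO blastocysts (median 151) and 130 to 1180 CPM in WT blastocysts (median 253). It was 2810 to 4500 CPM in oocytes and 120 to 445 CPM in 2-cell embryos, so the sum is not particular to primitive endoderm. Of 13 tested, 1 was lower in matKO, the laminin gene Lamb1 (-1.31 ± 0.32, adjusted p = 0.011), and none higher, with a median log2 fold change of -0.61, against -0.03 over all genes. Within D405T the median was -1.35 with 1 of 13 lower, Nid1 at -1.46, against -0.04 over all genes, and within D707T it was 0.05 with none called. Of 10 tested receptors and other regulators of the lineage, 1 was lower, Aqp8 at -2.49, and none higher. Of all genes tested in blastocysts, 3.55% were lower and 2.75% higher in matKO, with 2.31% called within D405T and 6% within D707T.

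FGF and MAPK signalling feeds the Gata6 step, and 18 of its 19 listed genes could be tested in blastocysts. In matKO 3 of the 18 were higher and none lower, where 2.75% of all genes tested were higher and 3.55% lower. Their median log2 fold change was -0.13, against -0.03 over all genes. Within D405T 1 was higher and none lower (median -0.12), where 2.31% of all genes were called. Within D707T none was higher and 2 were lower (median -0.33), where 6% of all genes were called. The 3 were Dusp4, a MAPK phosphatase, at 0.99 ± 0.22 (adjusted p = 0.0048), the exchange factor Sos1 at 0.64 and the adaptor Grb2 at 0.39. Of 14 epiblast and inner cell mass genes 4 were higher, among them Nanog at 0.6 and Gdf3 at 0.7, and 1 was lower, Prdm14 at -2.51, with a median of 0.21; within D405T 2 were higher and none lower, and within D707T 1 was higher and 2 were lower. Of 14 trophectoderm genes 7 were lower and none higher, with a median of -0.98, including Gata2 at -2.83, Krt7 at -2.07 and Krt18 at -1.09, and none was higher in either prefix, with 2 lower in D405T and 6 lower in D707T. GATA6 is present in early trophectoderm as well as in the inner cell mass, and the part of these marker shifts in the Gata6 result was not tested.

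Gata6 gave close values in the sexes. The log2 fold change was 0.75 ± 0.22 in female blastocysts (adjusted p = 0.13) and 0.74 ± 0.2 in male blastocysts (adjusted p = 0.05 after rounding, not called). The male value was called without any of matKO females 5 and 6, matKO males 1, 4 and 7, WT female 6 or WT male 4 (adjusted p from 0.028 to 0.05 after rounding). Both were called in DESeq2 (0.045 in females and 0.013 in males). The female effect minus the male effect was 0.02 ± 0.29 (adjusted p = 1). No regulator was called for that difference (0 by edgeR and by DESeq2; 0 of 6 in edgeR at an unadjusted p below 0.05), where 0.00744% of all genes tested, 1 gene, were. None was called in either sex alone by edgeR (1 of 6 in females and 3 of 6 in males at an unadjusted p below 0.05), where 0.208% of all genes were called in females and 1.52% in males.

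Across the 28 blastocysts none of 15 pairs of the 6 tested regulators passed the test of covariation, with log2 CPM centred by genotype and prefix. Gata6 and Dab2 had the highest correlation (Pearson's r = 0.50, Spearman's rho = 0.58, permutation p = 0.038 and 0.0042, adjusted p = 0.19 and 0.063), with r = 0.31 without the 2 libraries farthest from the Gata6 median. Hnf4a and Dab2 had the lowest (r = -0.58, rho = -0.44, permutation p = 0.016 and 0.022, adjusted p = 0.19 and 0.17), with r = -0.24 without 2 libraries. Without the centring 5 pairs were called, all positive, led by Gata6 with Dab2 (r = 0.69). Those pairs then share the prefix and genotype differences.

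Of 8449 genes compared by their pattern over the 28 blastocysts, centred in the same way, those most like Gata6 were Morc3 (r = 0.82), Arhgap5 (0.81), Fam45a (0.79), Bzw1 (0.78) and Usp16 (0.77). For Sox17 they were Elf5 (0.80), Etv6 (0.70), S100a10 (0.68), Serpinb1a (0.67) and Snai1 (0.64). For Dab2 they were Rngtt (0.82), Sdcbp (0.81), Rbbp8 (0.81), Polq (0.80) and Pitrm1 (0.80), and for Gata4 Ciz1 (0.75) and Sdhaf2 (0.74) came first. Golm1 (0.77) led for Pdgfra and Avpi1 (0.75) for Hnf4a. None of these leading genes was another of the 8 regulators. These are descriptions over libraries that differ in depth.

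In ExE, Hnf4a was lower and Gata6 higher in matKO, and the libraries differed in markers of endoderm and decidua. Most of the 8 genes are known from the visceral endoderm that covers the ExE and from the nearby parietal endoderm. Of the 8 genes tested 1 was called higher and 1 lower, where 24.9% of all genes tested were called (14.1% higher and 10.7% lower), so the count was at the background. The median log2 fold change of the 8 was 0.61, against -0.07 over all genes. Since matKO and WT libraries have different prefixes, genotype and prefix cannot be told apart in any ExE result.

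Hnf4a had a lowest, median and highest value of 28.5, 112 and 215 CPM in 8 matKO libraries and of 136, 253 and 395 CPM in 10 WT libraries. Of the matKO libraries 5 were below every WT library, and of the WT libraries 6 were above every matKO library. On the log2 scale matKO differed from WT by -0.95 ± 0.3 (edgeR, adjusted p = 0.023). The call was lost without matKO female 4 (-0.83, adjusted p = 0.052). The sum of 16 visceral endoderm markers was 753 to 7900 CPM in matKO (median 3150) and 1400 to 8810 CPM in WT (median 5720), so the genotypes overlapped. The matKO libraries lowest in Hnf4a, females 2 and 4, had the lowest sums, 753 and 776 CPM. Of 15 tested 3 were lower, namely Hhex at -1.09, Spink1 at -1.85 and Rbp4 at -1.23, and 1 higher, Apoa4 at 3.02, with a median of -0.58. Of all genes tested, 10.7% were lower and 14.1% higher, 24.9% in either direction, so the markers called were near the background. Whether the share of visceral endoderm in the dissected tissue set the Hnf4a difference was not tested.

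Gata6 had a lowest, median and highest value of 8.45, 32.1 and 188 CPM in matKO and of 9.4, 18 and 63.1 CPM in WT. The groups overlapped, and 2 matKO libraries, male 1 at 188 CPM and female 4 at 85.1 CPM, were above every WT library. The log2 fold change was 1.51 ± 0.5 (adjusted p = 0.032). It was 0.68 and not called without matKO male 1 (adjusted p = 0.17), and the call was also lost without matKO female 4 (0.074), WT female 1 (0.052), WT male 2 (0.064), WT male 3 (0.059) or WT male 4 (0.054), and when no filter on low counts was used (0.084). Markers of the decidua and uterine stroma were 47.6 to 822 CPM in matKO and 41.4 to 236 CPM in WT as a sum of 15 genes, with matKO females 2, 4 and 5 and male 1 above every WT library. Of 12 tested, 7 were higher in matKO, where 14.1% of all genes tested were higher. Endothelial and blood markers summed to 8.66 to 345 CPM in matKO and 2.82 to 92.7 CPM in WT. Without those 4 matKO libraries high in stroma markers, a choice made after seeing the data, Gata6 stood at 0.14 ± 0.4 (adjusted p = 0.84) and Hnf4a at -0.7 ± 0.31 (adjusted p = 0.13). None of the 8 was then called (edgeR, 1 of 8 at an unadjusted p below 0.05), where 1994 of 14488 genes tested were. The 4 included male 1 and female 4, the highest in Gata6, and females 2 and 4, the matKO libraries lowest in Hnf4a. The loss of both calls thus partly follows from the choice, and the part of stroma was not tested.

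The other 6 genes were not called. Gata4 had 217 ± 126 CPM in matKO and 159 ± 60.1 CPM in WT (SD; log2 0.75 ± 0.32, adjusted p = 0.082). Pdgfra had 42.1 ± 47.1 CPM in matKO and 27.1 ± 11.6 CPM in WT (log2 0.93 ± 0.44, adjusted p = 0.12) and was called without matKO male 3 (1.07, adjusted p = 0.037). Sox17, Sox7, Foxa2 and Dab2 had log2 fold changes of 0.51 ± 0.28, 0.71 ± 0.5, 0.33 ± 0.3 and 0.12 ± 0.32. The ligands Pdgfb at 1.25 and Pdgfa at 0.86 were higher in matKO, 2 of 4 tested PDGF ligands and second receptor, where 14.1% of all genes tested were higher. Of 14 tested receptors and other regulators of the lineage, 3 were higher and 1 lower, where 14.1% of all genes tested were higher and 10.7% lower. Those called included Cited1 at 1.13 and Stra6 at 3.29, which were higher, and Msx2 at -1.43, which was lower.

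One matKO library, male 1, had the highest level of 7 of the 8 genes over all 18 ExE libraries, every one but Hnf4a. The sum of the 14 basement membrane and secreted genes was 15400 CPM in it, 7780 CPM in WT female 3 and 5780 CPM in matKO female 4. For 6 of the 8 genes the 2 highest libraries were both among these 3. Over all libraries the sum was 1060 to 15400 CPM in matKO and 657 to 7780 CPM in WT, and none of the 14 genes was called (edgeR), although their median log2 fold change was 1.33. Both genotypes held libraries high in these genes, and their part in the Gata6 difference was not tested.

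**Figure D4:**
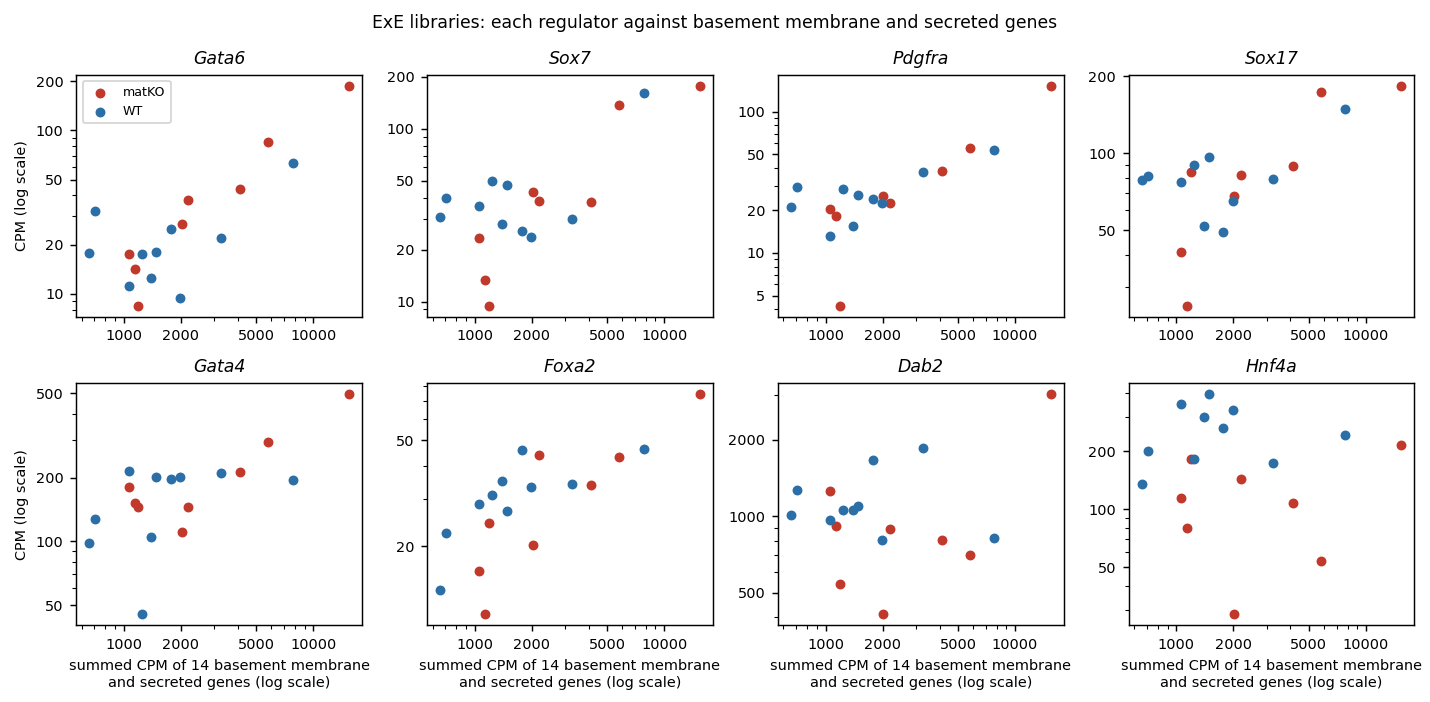
CPM of each regulator against the summed CPM of 14 basement membrane and secreted genes in 18 ExE libraries (both axes log, 1 point per library, matKO and WT in separate colours). The library at 15400 CPM, matKO male 1, is the highest for 7 of the 8 genes, and Hnf4a is low in several matKO libraries at any sum.

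Several of the genes varied together across ExE libraries, a comparison chosen after seeing the data. With levels centred by genotype, 7 of 28 pairs were called and all 7 were positive. The share of called pairs among other genes was not counted, so this number has no background to be read against. Gata6 with Pdgfra (Pearson's r = 0.91, permutation, adjusted p = 0.00014), Gata6 with Sox7 (r = 0.91) and Sox7 with Pdgfra (r = 0.85, adjusted p = 0.00037) were the closest, followed by Sox17 with Sox7 (r = 0.81), Gata6 with Sox17 (r = 0.72), Sox17 with Foxa2 (r = 0.68) and Gata6 with Foxa2 (r = 0.66). Without matKO male 1 the pairs called were 4: Gata6 with Sox7 (r = 0.87), Gata6 with Pdgfra (r = 0.86), Sox7 with Pdgfra (r = 0.79) and Sox17 with Sox7 (r = 0.75). Without the 2 libraries farthest from the median of the first gene 3 of the 7 pairs remained called. No pair with Hnf4a was called.

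**Figure D5:**
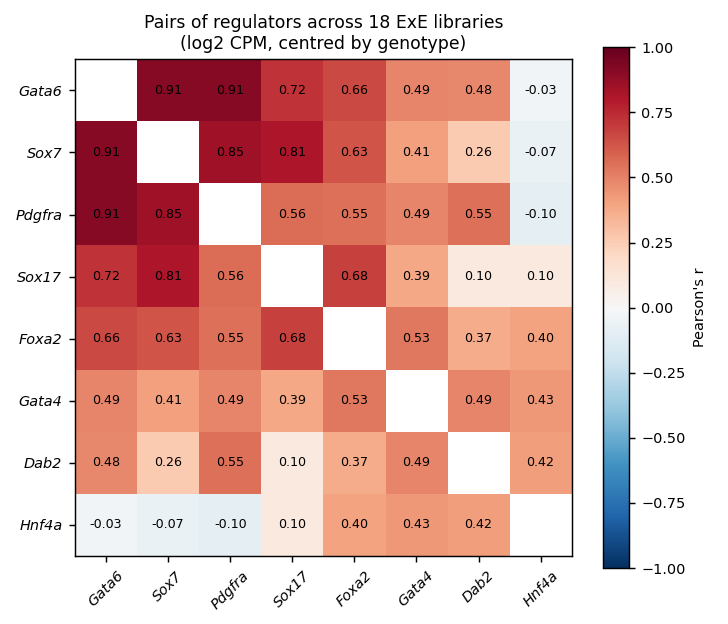
Pearson's r between log2 CPM of each pair of regulators across 18 ExE libraries, centred by genotype, on a colour scale from -1 to 1 with the value in each cell. Gata6, Sox7 and Pdgfra have the highest values, up to 0.91. Sox17 ranges from 0.56 with Pdgfra to 0.81 with Sox7, Foxa2 has 0.55 to 0.68 with these genes, and Hnf4a stands apart.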

How the data were processed

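Polyadenylated RNA of 76 single oocytes, embryos or ExE pieces was measured, and the authors deposited raw counts per gene in 4 tables, 1 for each stage. Per the submitters' processing notes, reads were handled with Trim Galore, STAR, SAMtools and featureCounts on mm10. Versions, the annotation release, strand setting and treatment of multi-mapping reads were not given in the sources used here. Another 8 count columns matched no sample and were not used.

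Counts were tested as deposited in R 4.3.3 with edgeR 4.0.16 (estimateDisp, glmQLFit and glmQLFTest with legacy set to TRUE, TMM scaling, filterByExpr with a minimum count of 10, Benjamini-Hochberg adjustment over all genes tested, threshold 0.05). Models held genotype, with sex in 2-cell embryos and ExE and with sex and identifier prefix in blastocysts. Stages were compared in a joint fit of all 76 libraries. Fold changes are matKO over WT, later over earlier stage, or D707T over D405T. Covariation used log2 CPM with a prior count of 2 and 100000 permutations. DESeq2 1.42.0, other scalings, filters and model terms and each left-out library were the alternatives. The fits were tested on simulated data. Without a separate dispersion step, unchanged genes made up 40.4% of calls in blastocysts, 31.9% in 2-cell embryos, 19.5% in ExE and 5.95% in oocytes. In the main fit these shares were 6.31%, 0%, 5.56% and 2.67%. Calls made only without that step are therefore less reliable.

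The 8 genes, the gene lists and the choice of dispersion step were made with earlier results of these data known. The genes named were the 8 regulators, from each list no more than 4 called genes, by smallest p, where a regulator's result turned on them, defining markers, and the 5 genes most like a regulator over blastocysts. No pair of libraries agreed within sampling noise. One gene of the list of receptors and other regulators is not reported here.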

Additional observations from a re-analysis of the deposited data

Results flagged for a closer look

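In groups of 4 to 10 libraries the highest or lowest library was set against the others by its gap relative to the group's range (Dixon's test at 95%). For normal values chance flags about 1 in 20 groups, and 8 of 45 groups were flagged. The CPM values were not shown to be normal, and the same libraries recur over the genes. The 8 can therefore not be read as an excess over chance. In ExE, WT female 3 stood apart from the other WT libraries for Gata6 (63.1 CPM, the next at 31.9), Sox17 (149 CPM, the next at 96.6) and Sox7 (161 CPM, the next at 49.8). In ExE, matKO male 1 stood apart from the other matKO libraries for Gata6 (188 CPM, the next at 85.1), Pdgfra (153 CPM, the next at 54.9) and Dab2 (3020 CPM, the next at 1250). In blastocysts, Sox7 stood apart in the D707T matKO embryo male 5 (2.69 CPM, the next at 0.585) and in the D405T WT embryo female 3 (2.26 CPM, the next at 0.642).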

How the results depend on the processing

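Beside the leave-outs, 484 of the regulators' fold changes compared under another setting kept their direction and their side of the threshold. Of the others 15 lost a call, 16 gained one and 23 changed sign, and the cause was not tested. Counts of calls are not in this tally and were taken as changed beyond 1.5 times. The Gata6 calls in all blastocysts and in D405T held under every setting run. Leave-outs were not run for the stage comparisons. The limits are depth for Sox7 and Foxa2 before ExE and for Sox17 in D707T blastocysts, where single counts decide a value, and the prefix, which in ExE goes with genotype.

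Counts of regulators called changed from 0 to 1 in 2-cell embryos without a separate dispersion step, where Gata6 passed. In blastocysts they changed from 1 to 3 in that setting and to 2 in DESeq2. In female blastocysts they changed from 0 to 1 in DESeq2, and in male blastocysts from 0 to 1 with DESeq2 size factors (Gata6, adjusted p = 0.044), without a separate dispersion step (0.02) and in DESeq2 (0.013). In ExE they changed from 2 to 1 with no count filter and to 0 without the 4 matKO libraries high in stroma markers. Blastocyst pairs changed from 0 to 5 with no centring. ExE pairs changed from 7 to 3 without the 2 libraries farthest from the median and to 4 without matKO male 1. Sox17 was called in D405T without a separate dispersion step (adjusted p = 0.049) and Gata4 for the prefix (0.025). Between stages the same setting gave 2.13 for Sox17 (adjusted p = 0.038) and 5.03 for Sox7 (0.11) in matKO blastocysts over 2-cell embryos, and 0.93 for Pdgfra in WT ExE over blastocysts (0.029).

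Counts over all genes depended on the tool. DESeq2 called 36 genes in oocytes against 3 in edgeR, 693 against 106 in 2-cell embryos, 1336 against 847 in blastocysts, 206 against 28 in females, 593 against 205 in males, 4 against 1 for the sex difference, 710 against 311 in D405T, 1347 against 807 in D707T and 518 against 162 for the prefix difference. Without a separate dispersion step there were 454 in 2-cell embryos, 1796 in blastocysts, 280 in females, 677 in males and 1451 in D405T. With no count filter there were 129 in males and 0 for the sex difference. WT blastocysts over 2-cell embryos had 9499 with D707T alone, against 14665.

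DESeq2 size factors moved the median log2 fold change of all genes by -0.27 in matKO and -0.19 in WT for blastocysts over 2-cell embryos, and by 0.16 in matKO and 0.17 in WT for ExE over blastocysts. Foxa2 in WT blastocysts over 2-cell embryos then stood at -0.1, and at -0.32 in DESeq2. Other signs that turned, none of them called, were Sox17 at -2.42 in matKO blastocysts over 2-cell embryos with D707T alone, Hnf4a at -0.06 for the prefix with no sex term, Pdgfra at -0.07 in females and Gata4 at 0.08 for the sex difference without a separate dispersion step, and Sox17 at 0.23 for the sex difference in DESeq2.

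Some settings were chosen after seeing the data. Without matKO 2-cell embryos 42 to 48, 19 genes were called, and Gata4 stood at 0.23, Pdgfra at -0.99 and Dab2 at -1.32. Without the 7 WT 2-cell embryos high in granulosa markers 3 genes were called. Without the 4 matKO ExE libraries high in stroma markers 1994 were, against 3520, and Sox17 stood at -0.16, Sox7 at -0.71, Pdgfra at -0.28 and Foxa2 at -0.17.

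Whether replicate numbers pair the libraries was examined by correlation. Same-numbered matKO and WT libraries correlated above 0.1 in 1 of 3 oocyte, 1 of 11 2-cell, 5 of 13 blastocyst and 0 of 8 ExE pairs. The highest blastocyst value was 0.4. Blastocysts were centred by genotype and sex but not by prefix, so a shared prefix enters their values, which cannot decide on pairing. With the replicate number as a block, counts over all genes were 1 in oocytes, 14 in 2-cell embryos, 427 in blastocysts, 58 for the prefix, 0 in females, 71 in males, 0 for the sex difference, 124 in D405T and 9 for the prefix difference. Regulators called with the block were 1 in ExE (Gata4 at 0.91, adjusted p = 0.043, with Gata6 at 1.13 and Hnf4a at -0.83 not called), 0 for the prefix and 1 in D405T (Gata6 at 0.99, adjusted p = 0.013, with Dab2 at 0.61, adjusted p = 0.15, not called). With the block Pdgfra stood at -0.49 in 2-cell embryos, 1.08 for the prefix, -0.04 in females and -1.61 for the prefix difference, and Gata4 at 1.08 for the prefix and -0.77 in D707T. The block gave Sox17 1.36 for the sex difference, Hnf4a 0.22 in D405T and Foxa2 -0.2 in WT blastocysts over 2-cell embryos.

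With each library left out in turn, regulators called ranged from 0 to 3 in ExE, 1 to 2 in blastocysts, 0 to 1 in males, 1 to 2 in D405T and 0 to 1 in D707T. Genes called ranged from 1 to 4 in oocytes, 52 to 256 in 2-cell embryos, 0 to 55 in females, 83 to 285 in males, 118 to 389 in D405T, 407 to 944 in D707T and 42 to 227 for the prefix difference. Log2 fold changes that turned sign ranged from -0.26 to 1.05 for Gata6 and -1.74 to 0.1 for Pdgfra in oocytes, -0.42 to 0.38 for Pdgfra in 2-cell embryos and -0.21 to 0.25 for Dab2 in ExE. They ranged from -0.12 to 0.13 for Hnf4a by prefix, -0.13 to 0.55 for Pdgfra and -0.08 to 0.21 for Hnf4a in females, and -0.25 to 0.07 for Hnf4a in D405T. In D707T they ranged from -0.43 to 0.91 for Gata4, -0.95 to 0.06 for Pdgfra and -0.15 to 0.08 for Dab2. For the sex difference they ranged from -0.07 to 0.13 for Gata6, -1.06 to 0.52 for Gata4 and -0.7 to 0.77 for Sox17, and for the prefix difference from -0.14 to 0.84 for Pdgfra.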
